A study of Danio rerio with 35 samples.

Results

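The RNA of the normal adult zebrafish heart was described from the 4 libraries labelled wild type (WT) of a series of 35 samples. The libraries were chosen by genotype and assay in the sample labels, and the values are the 4 WT columns of the joint gene count table. Of the 14781 genes in that table, 12972 had at least 1 count in a WT library. The series also profiled hearts overexpressing klf1, and other assays, none of which is used here, so no value below compares genotypes. The libraries were made from polyadenylated RNA of whole hearts of adult WT zebrafish. The labels name no transgene or treatment for them, and do not say whether each came from its own fish or from pooled fish, nor give sex, batch or date. Spreads are therefore between libraries, which may be technical in part.

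The zebrafish heart has a single atrium and a single ventricle, followed by an elastic outflow chamber, the bulbus arteriosus. Its muscle cells contract by sliding myosin thick filaments along actin thin filaments, switched on by calcium binding to troponin and switched off by the SERCA pump, which returns calcium to the sarcoplasmic reticulum. The work is paid for by mitochondrial respiration of fatty acids, glucose and lactate, buffered by creatine kinase and by oxygen bound to myoglobin. The teleost lineage went through an extra whole-genome duplication, and many zebrafish genes therefore have copies a and b that can differ in where they are used.

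Library totals were 11483636, 10109846, 11064195 and 9829896 counts in WT libraries 1 to 4, and 11941 to 12159 genes had a count in each. A level of 3 counts, the limit that a count of 0 allows, is 0.261 to 0.305 CPM, counts per 1000000 counts of the library, and limits and intervals given below cover counting error only. Levels are in CPM of the library total, given as mean ± SD over the 4 libraries, and a share in percent is CPM divided over the whole library. Counts were not divided by transcript length, so an order of genes is an order of counts, and a long transcript gives more counts than a short transcript at the same number of molecules. Library 3 stood apart from the others. This was measured over the 6281 genes with a mean of at least 10 CPM, on log2 of CPM plus 0.5. Spearman correlations of library 3 with libraries 1, 2 and 4 were 0.938 to 0.944, against 0.978 to 0.980 among those 3, and genes are not independent replicates. Its median distance from a gene's median over the libraries was 0.245 on the log2 scale, against 0.0684 to 0.0752 in the others. Values without it, or of each library, are given for some results, and the other means and SDs include it.

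The counts were concentrated in few genes. Ventricular myosin heavy chain vmhcl, named myh7l in RefSeq and the motor of the thick filament, had most counts in every library. It held 9.42, 9.38, 7.68 and 8.76% of the counts of libraries 1 to 4, a mean of 8.81 ± 0.813%. It was lowest in library 3. The leading 5 genes held 19.9 ± 0.717%, the leading 10 held 26.6 ± 1.07%, the leading 100 held 49.1 ± 0.862% and the leading 1000 held 79.1 ± 0.948% of all counts. Thus 9 genes gave 25% of the counts, 109 gave 50%, 719 gave 75%, 2543 gave 90% and 7175 gave 99%.

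**Figure D1:**
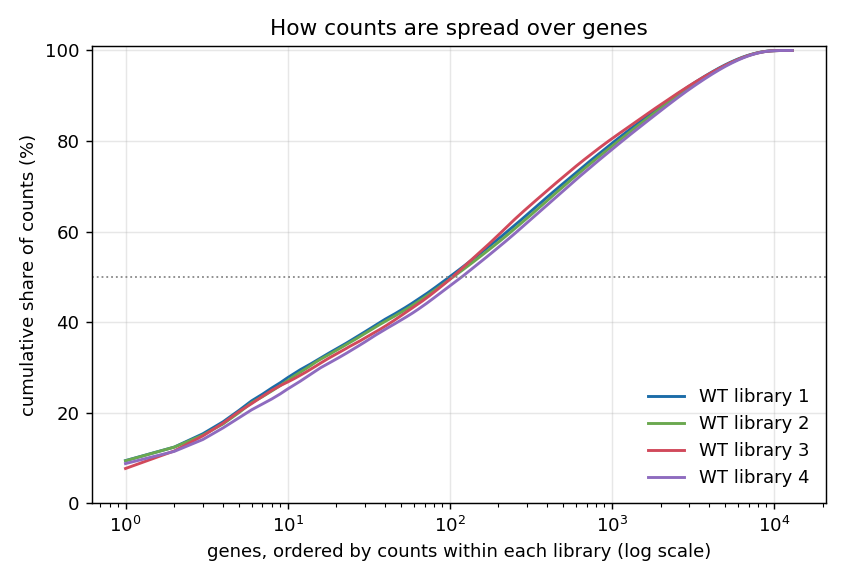
Cumulative share of counts (%) against genes ordered by counts within each library (log scale), 1 line for each WT library, with a dotted line at 50%. The lines run close together and cross 50% at 100, 106, 105 and 119 genes in libraries 1 to 4.

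By mean level, 119 genes at 1000 CPM or more held 51.1 ± 0.822% of the counts, and 1076 genes from 100 to 1000 CPM held 30.1 ± 0.594%. The largest class by number with counts, 5086 genes from 10 to 100 CPM, held 17.0 ± 0.766%. A further 3483 genes at 1 to 10 CPM held 1.66 ± 0.0839%, 3208 genes under 1 CPM held 0.0808 ± 0.00851%, and 1809 genes were at 0 in every WT library. At least 1 CPM in all 4 libraries, called detected from here on, was reached by 9324 genes. Another 807 genes reached it in 1 to 3 of the libraries.

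The 25 leading genes were sarcomere proteins, calcium handling proteins, the oxygen and energy supply, a translation factor, and zgc:158463, for which no function is given here. Genes that the table does not hold, such as the titin genes ttna and ttnb and the ryanodine receptor ryr2b, cannot appear in this order. The regulatory light chain myl7 had 29351, 30187, 38841 and 26163 CPM in libraries 1 to 4. Myoglobin (mb), which binds oxygen in muscle, had 29892, 26546, 25256 and 26980 CPM. Both genes overlapped in range, and library 3 was the highest for myl7 and the lowest for mb. The mitochondrial ADP/ATP carrier slc25a5 averaged 26303 ± 1518 CPM and the glycolytic enzyme gapdh 26152 ± 4809 CPM. Next came the cardiac actin actc1a with 19407 ± 2921 CPM, the essential light chain cmlc1 with 14714 ± 2218 CPM, the tropomyosin tpm4a with 11735 ± 1127 CPM, the calcium pump atp2a2a with 11307 ± 2697 CPM and the thick filament protein mybpc3 with 10165 ± 2110 CPM.

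The next 15 genes lay between 9074 and 3623 CPM. They held the Z-disc proteins actn2b and ldb3b, the troponins tnnt2a and tnnc1a, and phospholamban (pln), which restrains the calcium pump. They held the glycolytic enzymes aldoaa and eno3, lactate dehydrogenase ldhba, the mitochondrial dehydrogenases idh2 and mdh2, the ATP synthase subunits atp5b and atp5a1, the creatine kinase ckma, the elongation factor eef1a1l1 and the gene zgc:158463. The last of these had 6129.5, 6023, 2482 and 6527 CPM, so that library 3 was far below the others.

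The order among these genes was only partly stable. Of the 24 steps from a gene to the next, 6 had the same direction in all 4 libraries and 6 were larger than the larger SD of the neighbours. The step from vmhcl to myl7, from gapdh to actc1a, from cmlc1 to tpm4a and from aldoaa (6793 ± 373 CPM) to idh2 (5490 ± 569 CPM) met both. The steps among myl7, mb, slc25a5 and gapdh were each within the larger SD of the neighbours, although myl7 was above both slc25a5 and gapdh in all 4 libraries. No step from idh2 down to atp5a1 exceeded it. Among the leading 10 genes of each library, 8 were shared by all 4 libraries and 12 appeared in any. For the leading 100 the numbers were 82 and 119.

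**Figure D2:**
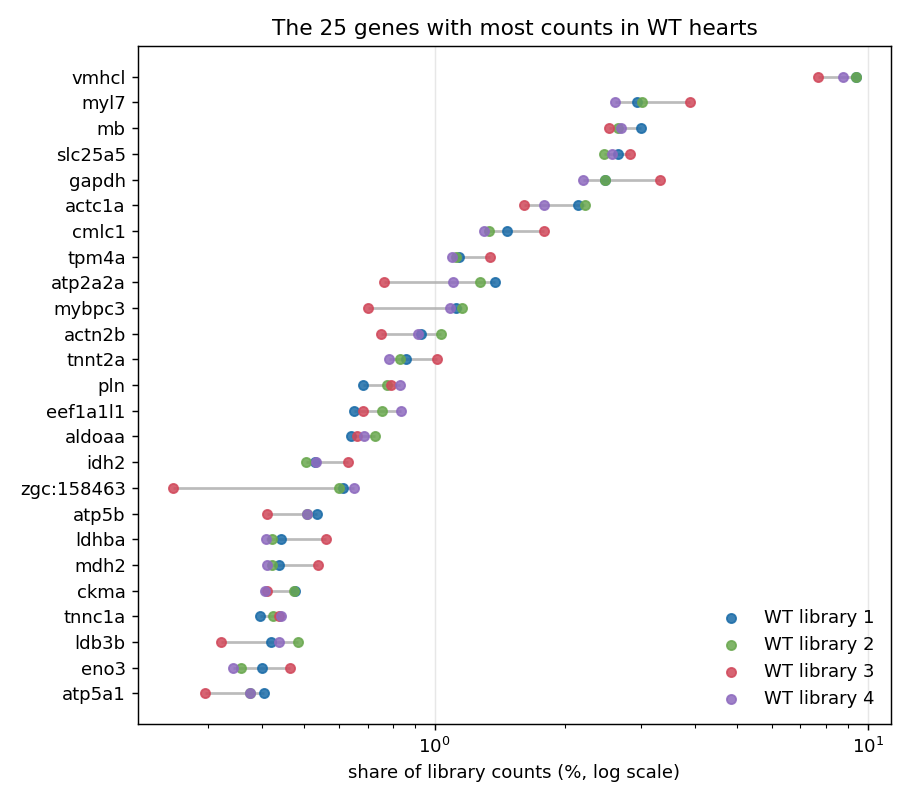
Share of library counts (%, log scale) of the 25 genes with the highest mean CPM, 1 point for each WT library and a grey line over their range. The gene vmhcl stands alone at 7.68 to 9.42%, and library 3 is the far point for zgc:158463, atp2a2a and mybpc3.

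Shares by function cover genes in the table, 15 of 29 listed for the thick filament and 28 of 34 for calcium cycling. Thick filament genes held 14.7 ± 0.614% of the counts, with 12 of the 15 detected. Thin filament genes held 5.46 ± 0.253%, with 19 of 26 detected, and Z-disc and costamere genes held 2.23 ± 0.222%, with 23 of 30 detected. Calcium cycling genes held 2.36 ± 0.278%, led by atp2a2a, pln, the sodium-calcium exchanger slc8a1a, the calcium store protein casq2 and the L-type calcium channel cacna1c. Channels and pumps held 0.854 ± 0.0865%, led by the sodium pump subunits atp1a3b, atp1a1a.1 and atp1b1a. The table held 23 of the 43 genes listed for them, so this share leaves out many channels. The ventricular light chain myl2b was at 0 in all 4 libraries, as was the sodium pump subunit atp1b2b.

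Energy genes were the other large class. The respiratory chain list, which includes the carrier slc25a5, held 6.62 ± 0.380% with 51 of 53 genes detected, and glycolysis and lactate genes held 5.996 ± 0.598% with 39 of 45. The oxygen and energy buffer list held 3.64 ± 0.226%, most of it mb and creatine kinases. The tricarboxylic acid cycle held 2.68 ± 0.0573% and fatty acid use 1.46 ± 0.105%. Fatty acid use was led by acadvl, an acyl-CoA dehydrogenase of very long chains, with 3579, 2548, 2411 and 3571 CPM, and by the fatty acid binding protein fabp3 with 1688, 1511, 2463 and 1716 CPM. Library 3 was lowest for acadvl and highest for fabp3. The genes of the mitochondrial genome are not in the table and were not analysed here.

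Ribosomal protein genes held 6.13 ± 1.54% and are taken up below with library 3, which sets their spread. Translation factors held 2.06 ± 0.151% of the counts, stress response genes 1.01 ± 0.0649%, secreted heart factors 0.504 ± 0.0720%, and extracellular matrix and valve genes 0.263 ± 0.0386%. The table held 26 of 38 listed secreted factors and 31 of 49 listed matrix and valve genes. Globin and erythroid genes held 0.190 ± 0.0352%, with 20 of 29 listed genes in the table. Secreted factors were mostly the atrial natriuretic peptide gene nppa, with 2789, 3274, 4029 and 4372 CPM. The stress list was led by the chaperones hsp90ab1 (2888 ± 373 CPM) and hspa8 (1510 ± 172 CPM). Cell division genes held 0.0353 ± 0.00164%, with 22 of 32 detected. Of that list, the cyclin genes ccna2, ccnb1, ccne1 and ccne2 and the kinases cdk1, aurka and aurkb were not detected. Its leading members included plk2b at 64.7 ± 11.9 CPM, the cyclin-dependent kinase inhibitor cdkn1bb and the cyclin ccnd2a at 43.2 ± 3.86 CPM.

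All 12 cardiomyocyte markers in the table were detected and together held 19.9 ± 0.945% of the counts. Of the 15 listed, ttna, ttnb and ryr2b are not in the table. Fewer cells of a type and less RNA per cell cannot be told apart in bulk samples. All 15 endothelial and endocardial markers in the table were detected, with 0.257 ± 0.0582% of the counts, led by vwf and notch1b. The atrial list had 6 of 6 markers detected and the ventricular list, led by vmhcl, 5 of 6. Most of the 35166 ± 5475 CPM of the atrial list was myl7. That gene is also on the cardiomyocyte list, so the sum does not measure the atrium. The atrial chain myh6 had 225 ± 43.3 CPM. The epicardial list held 0.164 ± 0.0217%, with 7 of 8 markers detected, and most of it was the keratin krt8 (1548 ± 219 CPM). Next in level came aldh1a2 and postnb, then tbx18 and tcf21, under 10 CPM each, while aldh1a3 was at 0 in every library. Fibroblast markers held 0.130 ± 0.0221%, with 9 of 11 detected, outflow and bulbus smooth muscle markers 0.0374 ± 0.00697%, with all 7 detected, and macrophage markers 0.0191 ± 0.00305%, with 9 of 10 detected. The macrophage list was led by the cathepsin gene ctsba, followed by csf1ra and mpeg1.1, while apoeb was not detected.

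Markers of other tissues were mostly undetected. Of 18 skeletal muscle markers, 5 were detected (ckma, acta1b, acta1a, ckmb and atp2a1), while the fast myosins myhz1.1, myhz1.2 and myhz2 and the troponins tnnt3a and tnni2a.4 were at 0 in all 4 libraries. The list summed to 7443 ± 923 CPM, nearly all of it ckma and acta1b. Skin markers summed to 188 ± 38.1 CPM, led by icn and krt4, a level like the 191 ± 30.5 CPM of the macrophage list. Detected were 2 of 13 neuron and glia markers, 2 of 9 liver markers, 1 of 6 germline markers, 0 of 3 adipocyte markers and 0 of 4 gill and ionocyte markers. Of 5 pancreas and gut markers, the digestive enzyme gene ctrb1 was detected. It had 42.4, 6.63, 4.52 and 16.5 CPM, with library 1 the highest. Of the remaining blood and vessel lists, 4 of 4 lymphatic, 3 of 5 pericyte and 5 of 8 neutrophil markers were detected. So were 2 of 5 T and NK cell, 0 of 1 B cell, 5 of 6 thrombocyte, 2 of 6 skin and 1 of 2 kidney markers. The pericyte list was led by the detected notch3, rgs5a and rgs5b, while kcnj8 was not detected and pdgfrb was at 0 in all 4 libraries. The neutrophil list was led by cebpb, with csf3r, il6r and mmp13a also detected, and npsn was at 0 in all 4 libraries. The neutrophil markers mpx and mmp9 and the T and NK cell markers lck, zap70 and cd8a were not detected, while gata3 and il2rb of the latter list were. Of all 14781 genes 63.1% were detected, so these counts alone do not show that a cell type was present. The erythrocyte list summed to 688, 841, 1174 and 1446 CPM in libraries 1 to 4, a mean of 1037 ± 340 CPM. The adult alpha globin hbaa1 made up most of it, with 414, 494, 765 and 921 CPM. Of 12 listed erythrocyte genes 8 are in the table and 7 were detected. The listed globin genes hbaa2, hbba1 and hbba2 are not in the table, and the beta globin ba1l is not on the list. The sum is therefore not a total of globin counts.

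Within the listed gene families, most of the counts often came from a single member. Of 35 families with at least 2 members in the table, the leading member held over 90% of the family's counts in all 4 libraries in 12, and over 50% in 29. Some families, such as GAPDH and COX4, have 2 members in the table, so a share over 50% is nearly given. Others group genes that are not alternatives, such as the light chains, Nkx2 with Hand, and desmin with vimentin, which is among the 12. These counts are a description. Shares are over the listed members that the table holds, such as 3 of 7 myosin heavy chains and 3 of 7 natriuretic peptides. Myosin heavy chain counts were 98.9 ± 0.177% vmhcl. The other ventricular chain vmhc (myh7 in RefSeq) had 755 ± 210 CPM and the atrial chain myh6 had 225 ± 43.3 CPM. Troponin T was over 99.9% tnnt2a, the SERCA pump 99.5 ± 0.0495% atp2a2a, the sodium-calcium exchanger 99.7 ± 0.0403% slc8a1a, and the ADP/ATP carrier 99.9 ± 0.0162% slc25a5. Troponin C was 99.4 ± 0.170% tnnc1a and tropomyosin 98.9 ± 0.0514% tpm4a. Counts of the natriuretic peptide genes in the table came almost entirely from nppa.

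Other families were shared. Striated actin counts were 86.3 ± 1.12% actc1a and 12.4 ± 0.867% acta1b, the copy named after skeletal muscle actin. Troponin I, the inhibitory subunit, was 51.6 ± 4.70% tnni1b and 48.3 ± 4.69% zgc:101560, which RefSeq names tnni4a. In libraries 1 to 4, tnni1b had 3392, 2757, 3349 and 3186 CPM and zgc:101560 had 2618.5, 2791, 3924 and 2659 CPM. The gene tnni1b was the higher in libraries 1 and 4 and zgc:101560 in libraries 2 and 3, so no leader can be named. Light chains were 67.8 ± 1.32% myl7 and 32.2 ± 1.32% cmlc1, which are the regulatory and the essential chain and not alternatives to each other.

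Among enzymes, creatine kinase counts were 64.4 ± 1.73% ckma, 12.98 ± 0.927% the brain-type ckbb, and 12.4 ± 0.665% and 9.68 ± 1.33% the mitochondrial ckmt2b and ckmt2a. Lactate dehydrogenase was 73.6 ± 1.65% ldhba and 25.9 ± 1.53% ldha. Enolase was 76.3 ± 2.52% eno3 and 23.6 ± 2.498% eno1a, and aldolase was 74.3 ± 1.08% aldoaa and 20.7 ± 0.864% aldoab. The catalytic sodium pump subunit was 65.0 ± 2.61% atp1a3b and 34.7 ± 2.503% atp1a1a.1. Fatty acid binding protein counts were 75.3 ± 4.10% fabp3 and 24.7 ± 4.09% fabp11a. The elongation factor eef1a1l1 held 75.03 ± 1.73% and eef1a1l2 24.96 ± 1.73%. These last genes are neighbours in the RefSeq annotation and similar in name, and how reads of near-identical genes were counted is not given in the sources used here, so splits between close copies are uncertain.

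**Figure D3:**
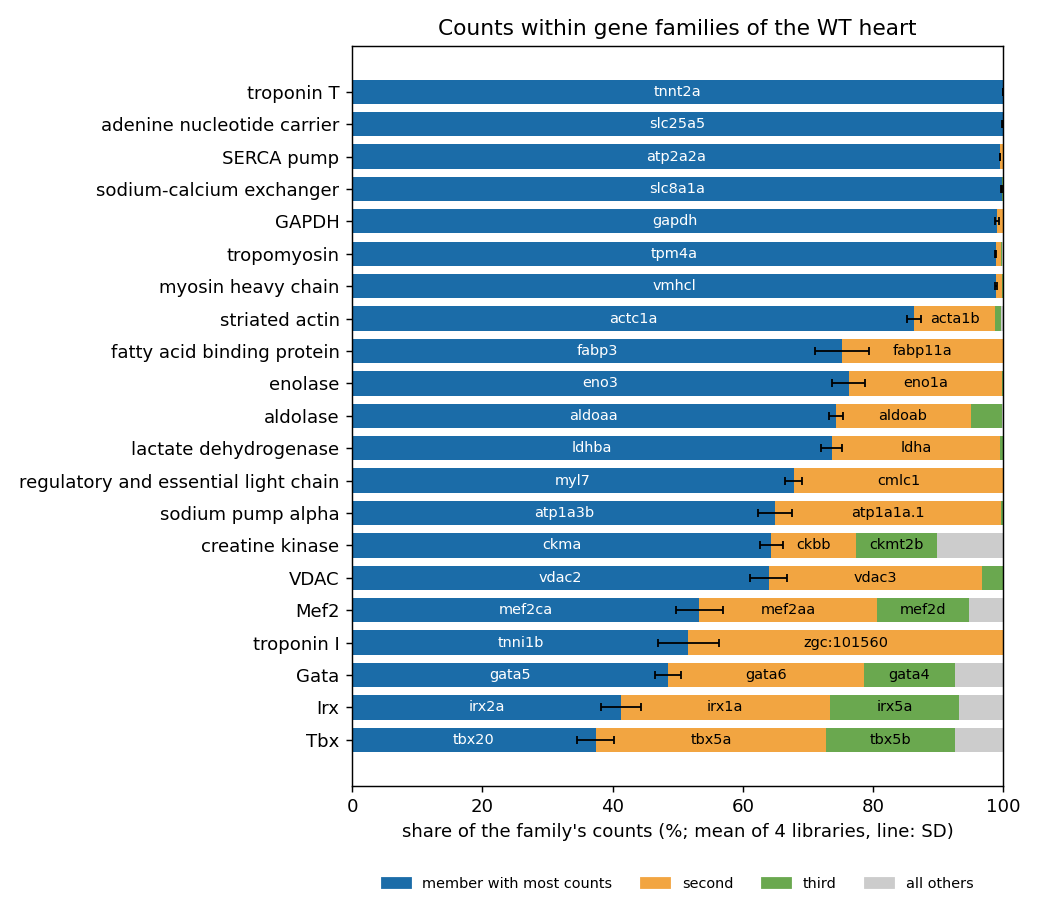
Share of a family's counts (%) held by the member with most counts, the next 2 members and all others, as the mean over 4 WT libraries, with the SD of the leading member as a black line. The upper families are held by a single gene (98.9% for vmhcl), while troponin I is split between tnni1b at 51.6% and zgc:101560 at 48.3%.

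Genes whose symbols differ in a last letter a or b were compared in pairs and taken as copies of the same gene. No sequences were compared, so some pairs may be separate genes of similar name. This asks which copy gives more counts. Counts were not divided by transcript length, so copies of unequal length can differ in counts at equal numbers of molecules. Of 1457 such pairs, 1173 had at least 40 counts over both copies and the 4 libraries and were tested. The copies differed in 1077 pairs (91.8%) by edgeR's quasi-likelihood test with library as block, at a Benjamini-Hochberg adjusted p under 0.05. Copy a was higher in 594 (50.6%) and copy b in 483 (41.2%). A single pair tested alone over 4 libraries by an exact paired permutation test could not go below 0.125. A log2 ratio of at least 1 was reached by 500 of the pairs with copy a higher and by 386 of those with copy b higher, and 483 pairs in either direction reached a log2 ratio of at least 3. Copy b was at 0 in every library in 51 tested pairs and copy a in 26.

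Of 940 pairs with at least 10 CPM in sum, the larger copy held a median of 80.8% of the counts, with quartiles of 65.3 and 96.4%. It held over 90% in 338 pairs, over 75% in 543 and under 60% in 158. The larger copy was the same in 4 of 4 libraries in 863 pairs. Both copies were detected in 732 pairs.

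**Figure D4:**
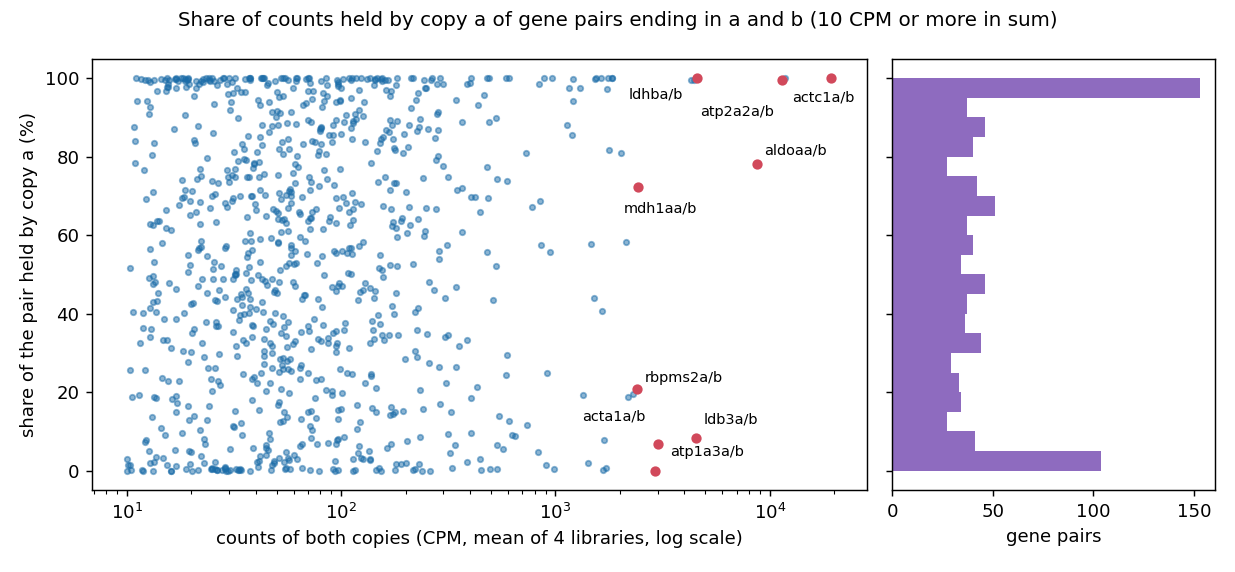
Left, the share of a pair's counts held by copy a (%) against the counts of both copies (CPM, log scale), 1 point for each of 940 pairs at 10 CPM or more, with examples in red. Right, the number of pairs at each share. Pairs crowd at both ends, near 100% as actc1a/b and near 0% as atp1a3a/b, and the rest spread over the whole range.

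The pairs with most counts included the sarcomere and calcium genes. Against actc1a with 824623 counts over the 4 libraries, actc1b had 19. Against tpm4a at 11735 ± 1127 CPM, tpm4b had 1.57 ± 0.318 CPM, and against atp2a2a at 11307 ± 2697 CPM, atp2a2b had 51.2 ± 14.97 CPM. The share of the larger copy in ldhba over ldhbb, ckma over ckmb and tnnc1a over tnnc1b was 99.9, 99.5 and 99.4%.

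For 4 of the 12 leading pairs copy b was the larger. The SE of a log2 ratio, here and below, is approximate, the absolute ratio over the square root of the test's F. The Z-disc gene copy ldb3a had 421, 436, 265 and 384 CPM in libraries 1 to 4, against 4187, 4835, 3214 and 4372 CPM for ldb3b. The ranges did not overlap, and the log2 ratio of ldb3a over ldb3b was -3.47 ± 0.117 (SE; edgeR adjusted p 3.75e-11). The skeletal-type actin copy acta1a had 153, 308, 221 and 122 CPM, against 2883, 3505, 2420 and 2406 CPM for acta1b, a log2 ratio of -3.87 ± 0.174 (SE; edgeR adjusted p 4.83e-10). Its spread was wide, 200.8 ± 82.3 CPM for acta1a. The sodium pump copy atp1a3a had 0.799 ± 0.225 CPM and atp1a3b 2924 ± 592 CPM. The RNA-binding protein copy rbpms2a had 476, 471, 514 and 539 CPM, against 2058, 2052, 1669 and 1883 CPM for rbpms2b, a log2 ratio of -1.94 ± 0.119 (SE; edgeR adjusted p 9.86e-09).

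For aldoa and mdh1a, copy a was the larger and both copies were abundant. The aldolase copies aldoaa and aldoab had 6793 ± 373 and 1894 ± 43.9 CPM, a log2 ratio of 1.84 ± 0.108 (SE; edgeR adjusted p 5.81e-09). The cytosolic malate dehydrogenase copy mdh1aa had 1719, 1680, 2109 and 1547 CPM, and mdh1ab 681, 622, 811 and 592 CPM. Both mdh1a copies were highest in library 3 and lowest in library 4, and mdh1aa held 71.6 to 73.0% of the pair in every library.

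The most one-sided pairs at 10 CPM or more had a copy at or near 0. For the membrane-cytoskeleton linker moesin, msna had 882 ± 69.9 CPM and msnb had 0 counts. Taking 3 counts over the 4 libraries as the limit for a copy at 0, msna was at least 12516-fold higher in counts than msnb. Such limits assume that reads of the copy at 0 could be counted. How reads were counted is not given, so a 0 here does not establish that a copy is silent. The same limit gave tspan3a at least 5695-fold, the lysosomal protease copy ctsla at least 3086-fold and ptmaa at least 2209-fold higher than their b copies. The extracellular gene copy spon1a had 0 counts, and spon1b, with 153 ± 55.2 CPM, was at least 2125-fold higher. For lmo7, copy a had 77257 counts and copy b 2, a ratio of 38628 (95% interval 10693 to 318974). For the selenoprotein gene sepp1, copy a had 78260 counts and copy b 3, a ratio of 26087 (95% interval 8926 to 126499).

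At the other end, 6 symbol pairs had near-equal counts. The dynamin copies dnm2a and dnm2b had 41.4 ± 4.55 and 41.6 ± 7.20 CPM. The polycomb copies bmi1a and bmi1b had 15.98 ± 1.08 and 15.9 ± 1.79 CPM, and the glutamine synthetase copies glula and glulb had 77.9 ± 10.6 and 79.7 ± 19.0 CPM. The kinase copies rps6ka3a and rps6ka3b, the mediator subunits med13a and med13b, and the symbol pair tmem167a and tmem167b completed the set. The last pair was taken by symbol and may be separate genes, not copies of the same gene. In 5 of these 6 the larger copy was the larger in 2 of 4 libraries, and for rps6ka3 in 1. Such pairs were picked for their ratio, so these values are a description.

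The median transcription regulator had 1.45 CPM, against 6.22 CPM over all genes in the table. Over 25 families, whose members were taken by symbol, 238 of 479 genes (49.7%) were detected, against 63.1% of all genes in the table. Together they held 1.13 ± 0.118% of the counts, and 35 of them (7.31%) reached 100 CPM, against 8.08% of all genes. Over 13 families of signalling genes, 108 of 231 (46.8%) were detected, with 0.451 ± 0.0658% of the counts.

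The leading members of the core cardiac families, picked by level, were each well above the detection limit. Of the genes in the table, 6 of 7 Gata, 7 of 17 T-box, 5 of 6 Mef2 and 5 of 11 Irx genes were detected. The Mef2 count includes the detected mef2bnb, a gene of similar name that is not a Mef2 factor. The homeobox factor nkx2.5, which specifies heart muscle, had 241, 233, 240 and 229 CPM. It was the sole Nkx gene detected of 16 in the table, and its spread of 236 ± 5.60 CPM was narrow. The Gata factors, which bind with it at cardiac promoters in mammals, were led by gata5 with 245 ± 44.7 CPM, gata6 with 152 ± 30.6 CPM and gata4 with 69.1 ± 12.02 CPM. Of the T-box factors tbx20 had 158 ± 42.0, tbx5a 147 ± 27.4 and tbx5b 81.9 ± 15.1 CPM. The bHLH factor hand2 had 174 ± 11.3 CPM. Mef2 counts were led by mef2ca at 306, 329, 164 and 240 CPM, lowest in library 3, followed by mef2aa at 129 ± 21.2 and mef2d at 68.6 ± 17.3 CPM. The Iroquois genes irx2a, irx1a and irx5a had 89.9 ± 25.1, 70.4 ± 20.3 and 42.6 ± 9.74 CPM.

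Leaders of the families outside this core differed widely in level, and those with most counts are given here. Lower leaders included egr1 at 46.6 ± 26.3, smad3b at 43.4 ± 10.6 and mkl1b at 35.1 ± 6.66 CPM. The hypoxia factor hif1ab had 380, 363, 202 and 369 CPM, with library 3 below the others, and epas1b had 207 ± 41.1 CPM. All 12 genes of the Hif and Arnt family were detected, as were 27 of 28 clock genes, led by nr1d2a at 293 ± 36.1 CPM, bhlhe40 and cry2a. The interferon signalling factor stat2 had 238, 390, 413 and 220 CPM, higher in libraries 2 and 3 than in 1 and 4. Among Kruppel-like factors 17 of 18 were detected. The erythroid factor klf1 had 131, 210, 222 and 106 CPM, and klf11b had 184, 171, 125 and 181 CPM, so the levels of these leaders overlapped. Other leaders were foxo3b at 241 ± 66.5, mycb at 227 ± 33.3, yap1 at 207 ± 35.5, jun at 188 ± 57.6, meis1b at 186 ± 11.6 and fli1a at 130 ± 20.0 CPM.

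The Hox genes, which pattern the body axis, formed the opposite case. None of 48 in the table was detected, 27 were at 0 in every library, and all 48 together summed to 2.55 ± 0.494 CPM. Of 38 genes of the Pax, Lhx, Isl and sine oculis families, 2 were detected, six5 at 7.84 ± 2.23 and pax7a at 1.31 ± 0.176 CPM.

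Among signalling genes, Notch receptors and ligands summed to the highest level, 974 ± 263 CPM, with 10 of 12 detected. The receptor notch1b, known from endocardium, had 525, 645, 302 and 652 CPM, lowest in library 3. The Igf axis was led by the insulin receptor insra at 232 ± 52.4 CPM, with 246, 261, 154 and 265 CPM in libraries 1 to 4. Among angiogenic ligands vegfaa had 14.4 ± 2.35 CPM and its copy vegfab 309 ± 14.3 CPM. Of the Tgfb ligands, tgfb2 had 180 ± 20.2, tgfb3 89.5 ± 17.8 and tgfb1a 21.2 ± 4.54 CPM. The heart growth ligand bmp10 had 153 ± 23.5 CPM, followed by bmp16 at 72.3 ± 5.91 CPM. Of 30 genes taken by Fgf symbols 7 were detected, led by fgf17 at 61.0 ± 11.3 CPM. They include fgf14 at 46.7 ± 7.22 CPM, an intracellular member and not a secreted ligand. Of 21 Wnt ligands 5 were detected, led by wnt11r at 20.6 ± 5.51 CPM. Adrenergic and related receptors were led by adrb2b, with 57.7, 106, 68.1 and 33.5 CPM. The ligand nrg1, a mitogen for heart muscle cells, was not detected, at 0.478 ± 0.224 CPM.

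Among 6281 genes with a mean of at least 10 CPM, the median coefficient of variation (CV, SD over mean) was 14.0% and the 90th percentile 25.5%. It was under 10% in 1814 genes and over 50% in 55, and the highest library exceeded the lowest by over 2-fold in 331. Without library 3 the median CV of these genes was 7.78% and the 90th percentile 18.4%, with 4056 genes under 10%, 51 over 50% and 106 over 2-fold. Common biological variation, the square root of edgeR's common dispersion, was 0.177 with all 4 libraries and 0.119 without library 3. The median CV of genes from 100 to 1000 CPM was 14.3% with all libraries and 6.16% without library 3, and that of genes from 1 to 10 CPM was 21.2% with all and 17.8% without it. A chi-square test of each gene's counts against TMM-scaled library sizes found 5680 of 9827 genes (57.8%) varying beyond counting noise at a Benjamini-Hochberg adjusted p under 0.05. Without library 3 these were 2468 of 9798 (25.2%). This test compares libraries and not conditions.

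Library 3 differed by groups of genes. All 81 ribosomal protein genes were highest in it, and their median deviation from the gene's median was 0.65 on the log2 scale. Their sum was 8.40% of the counts in library 3, against 5.16 to 5.78% in the others, and the mean share was 6.13 ± 1.54% with all 4 libraries and 5.38 ± 0.347% without library 3. For example, the small subunit gene rps2 had 3036 CPM in library 3, against 1960, 2030 and 2168 CPM in libraries 1, 2 and 4. Of 51 respiratory chain genes at 10 CPM or more, 36 were highest in library 3 (median deviation 0.28). Of 16 translation machinery genes at that level, 9 were highest and 5 lowest in library 3 (median deviation 0.29). Among all 6281 genes at that level, library 3 was the highest in 1993 and the lowest in 2964, with a median deviation of -0.055.

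Other lists were low in the same library. The median deviation was -0.26 for 12 thick filament genes, of which 8 were lowest in it, while their summed share in library 3, 14.2%, lay within the 14.01 to 15.2% of the others. The median deviation was -0.35 for 20 extracellular matrix and valve genes, of which 14 were lowest, and -0.18 for 20 Z-disc and costamere genes, of which 11 were lowest. It was -0.21 for 13 channel and pump genes and -0.22 for 13 secreted heart factors. Endothelial markers held 0.174% of the counts in library 3, against 0.261 to 0.305% in the others. The calcium pump atp2a2a was at 7645 CPM in library 3, against 13802, 12756 and 11028 CPM in libraries 1, 2 and 4. Glycolysis and lactate genes held 6.86% in library 3, against 5.48 to 5.84% in the others, but 16 of 33 were lowest and 13 highest in it, with a median deviation of -0.043. Within that list gapdh had 33102 CPM in library 3, against 24797, 24689 and 22018 CPM in libraries 1, 2 and 4. The cause of these differences was not tested.

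The 15 genes with the largest CV were not all high in the same library. In libraries 1 to 4, 4, 2, 5 and 4 of them had their highest value. Coronin coro2a, an actin-binding protein, led with 181, 14.8, 4.79 and 16.6 CPM, a CV of 156%, high in library 1. The chemokine cxcl18b had 28.3, 8.80, 17.1 and 119 CPM, the NF-kB inhibitor nfkbiaa 18.9, 11.97, 16.9 and 58.6 CPM, the endothelial adhesion gene sele 230, 66.2, 97.8 and 428 CPM, and the interferon regulatory factor irf1b 24.4, 12.5, 17.5 and 56.7 CPM. These 4 were highest in library 4. The genes zgc:163136 (herc56.3 in RefSeq), si:ch211-281g13.5 (herc56.4), the antiviral GTPase mxe, si:dkey-188i13.7 (ifi27.4) and stat1b were all highest in library 3. For mxe the values were 8.88, 14.4, 48.1 and 19.0 CPM, and for stat1b 12.975, 29.9, 54.0 and 13.8 CPM. The immediate early factor fosab had 26.995, 71.9, 34.3 and 5.49 CPM, and with the lipolysis inhibitor g0s2 was highest in library 2. Highest in library 1 besides coro2a were ctrb1, the cytochrome P450 cyp2ad2 and the cytokine signalling inhibitor socs3b.

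Other genes of the immediate early kind, which are switched on soon after a stimulus, also differed between libraries. The antiproliferative gene btg2 had 242, 538, 302 and 97.6 CPM and the orphan receptor nr4a1 153, 518, 333 and 149 CPM in libraries 1 to 4, highest in library 2. Both were chosen after their values were seen.

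The 10 genes with the lowest CV at 10 CPM or more had a CV near 1%. They were fam213aa with 51.5, 50.8, 51.0 and 51.3 CPM (CV 0.552%), dldh, the dihydrolipoamide dehydrogenase shared by mitochondrial enzyme complexes, with 601, 600, 608 and 606 CPM (CV 0.648%), rnf103, ltv1, ankrd54, slu7, zgc:55741, vars2, lsg1 and ercc3. Such CVs lie below the counting error expected at these counts, and the genes were picked as the lowest of 6281. They are a description and do not mark these genes as steadier than others. Among more abundant genes named above, tnnc1a varied by 4.99%, vegfab by 4.64%, aldoab by 2.32% and slc25a5 by 5.77%, and each of these values includes library 3.

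**Figure D5:**
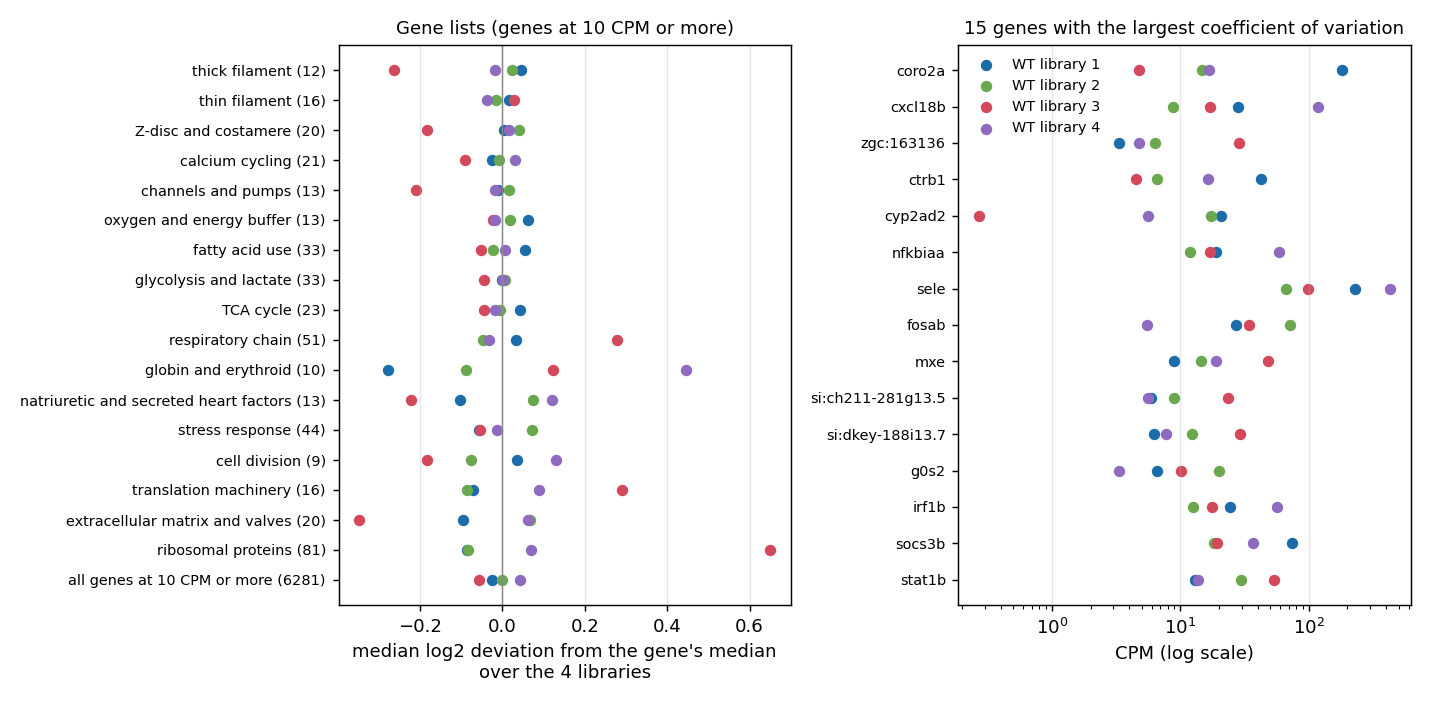
Left, the median log2 deviation of each gene list from the gene's median over the 4 libraries, 1 point for each library, with the number of genes at 10 CPM or more in brackets. Right, CPM (log scale) of the 15 genes with the largest CV. Library 3 stands out for ribosomal proteins at 0.65, and coro2a in library 1 at 181 CPM.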

How the data were processed

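The authors deposited raw counts as whole numbers, not normalized and not pooled, per the file headers, and each of the 4 WT files equalled its column of the joint table. The submitters' processing notes name the build danRer10, Bowtie2 2.2.8 and deepTools 3.1.2 without roles. How RNA reads were aligned and counted, and on which annotation or strand, is not given in the sources used here, so reads of near-identical copies, overlapping genes and antisense genes are uncertain. The labels' protocols name miRNeasy (Qiagen) for the RNA and Kapa's stranded mRNA kit for the libraries. The 4 other columns of the table and the 31 other samples were not analysed here.

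CPM used library totals. Copies were compared in R 4.3.3 with edgeR 4.0.16's robust quasi-likelihood test (two-sided, rows as pairs, library as block). DESeq2 1.42.0 and limma 3.58.1 were alternatives, with a pseudocount of 0.5 on log2 values for limma. Spread used TMM factors of 0.971 to 1.05 and genes with a mean of at least 10 counts. The tests were checked on simulated data. Pairs were taken from symbols, leaving out 16 pairs of microRNA genes and 27 pairs that are not copies of a gene by name. Others that are not copies may remain. No protein lengths were at hand, so the planned length offset, counts per coding kilobase and protein alignment of pairs were not used, and no sequence or coordinate is given. Other names come from RefSeq (assembly GRCz12tu), in which 14519 of 14781 symbols matched.

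The libraries, 17 gene lists, 24 marker lists, 39 families and 38 regulator families were chosen with earlier results of these data known. After values were seen, tnni3k and cyc1 were dropped from the families and zgc:101560 was added to troponin I. Named were the 25 leading genes, up to 5 leading members of a list and members at 0, the 12 pairs with most counts, the 8 most and 6 least one-sided pairs, leading family members, up to 3 leading regulators of a family, and the 15 most and 10 least variable genes. Some of these are given by count, and a few further genes (nrg1, btg2, vegfaa) were named after their values were seen. Where nothing says that libraries came from separate fish, p-values measure the spread between these libraries.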

Additional observations from a re-analysis of the deposited data

Results flagged for a closer look

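In 14 of 223 sets of 4 values (6.28%), the highest or the lowest library lay far from the other 3 by Dixon's test at 95%, which chance gives in about 1 of 20. These sets include the most and least variable genes, named for their spread (coro2a, zgc:163136, nfkbiaa and rnf103 among them), so the share is a description. Library 3 was the far value in 7. It had 13409 CPM of tpm4a, against 10984 to 11359 in the others, and 7029 CPM of mybpc3, against 10858 to 11564. It had 2482 CPM of zgc:158463, against 6023 to 6527, and 28.5 CPM of zgc:163136, against 3.31 to 6.33. It had 202 CPM of hif1ab, against 363 to 380, and 154 CPM of insra, against 246 to 265. The gill and ionocyte markers summed to 0.271 CPM in it, against 0.0871 to 0.102, none above the limit that a count of 0 allows.

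Library 1 had 181 CPM of coro2a, against 4.79 to 16.6 in the others, 24.1 CPM of inhbb, against 42.1 to 45.1, and 1.13 CPM of nkx3.2, against 0.271 to 0.407. Its tricarboxylic acid cycle genes summed to 27675 CPM, against 26458 to 26610. Library 4 had 58.6 CPM of nfkbiaa, against 11.97 to 18.9, and 43.9 CPM of adora2aa, against 33.1 to 34.9. Library 2 had 42.3 CPM of rnf103, against 42.9 to 43.0, a gene with a small spread. Over all 6281 genes at 10 CPM or more, 603 (9.6%) had such a far library, which was library 3 in 499 of them.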

How the results depend on the processing

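The count of 1077 differing pairs of 1173 tested was between 869 and 1160 in 11 alternatives. Over the same 1173 pairs it was 1051 with DESeq2 and library as replicate block, 1069 with limma and 1044 with no replicate block. A log2 ratio of at least 1, a stricter cut on the same calls, left 886. The next alternatives tested other numbers of pairs, so their counts are not like for like. They gave 1160 of 1414 with no filter beyond 1 count and 869 of 946 at 400 counts or more. Every symbol pair except microRNA genes, an alternative chosen after seeing the data, gave 1093 of 1196. No paired analysis was possible between groups because a single group is described, and the block here ties both copies of a pair within a library. Leaving out each library in turn gave 1030 to 1060 pairs, of which 1027 to 1049 were called in the same direction as with all 4 and 0 in the other direction. The share of the leading 10 genes rose to 28.4% with 81 ribosomal protein genes and the 6 globin genes of hb symbols left out (the beta globin ba1l was kept), against 26.6%, since the total is then smaller, and was 26.2 to 27.1% on leaving out a library. Detected genes numbered 7319 at 5 CPM to 9845 at 0.5 CPM, and 9358 to 9423 on leaving out a library. Genes varying beyond counting noise numbered 2468 to 5339 and the common biological variation was 0.119 to 0.194 on leaving out a library, both lowest without library 3, and 5599 to 5772 and 0.178 to 0.181 under other scalings and filters. Not run were the coding-length offset, counts per coding kilobase and the protein alignment of pairs, for which no protein table was at hand. Depth limits statements on genes under about 1 CPM.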
